A study of Saccharomyces cerevisiae with 8 samples.

Results

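Of the 55 ribose methylation sites that the deposited overview annotates in yeast rRNA (18 in 18S and 37 in 25S), 2 are described here: Am1133, a methylated adenosine, and Um1888, a methylated uridine, both in 25S rRNA. They were chosen by position, as the annotated sites between nucleotides 951 and 2100 of 25S that lie far from any other annotated site. This stretch covers 1150 of the 3396 nucleotides of 25S in the deposited tables and holds 5 annotated sites. Cm1437, Am1449 and Gm1450 are among the 5 and are not described, and the 1145 nucleotides without an annotated site serve as background. The nearest annotated sites to Am1133 are Gm908, 225 nt upstream, and Cm1437, 304 nt downstream. Um1888 lies 438 nt downstream of Gm1450 and 309 nt upstream of Cm2197.

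The study dealt with RNA helicases, small nucleolar ribonucleoproteins (snoRNPs) and 2'-O-methylation of rRNA. It measured ribose methylation in whole cell RNA of exponentially growing budding yeast in 8 libraries, which form 4 groups of 2. Delta_Dbp3 is a strain labelled as a deletion of Dbp3, a DEAD-box RNA helicase. PRP43_Glu and PRP43_Gal are libraries of a strain in which a GAL promoter drives PRP43, which encodes a DEAH-box RNA helicase. Galactose switches this promoter on and glucose represses it. WT is the wild type. Media are not given for each sample, and the labels name rich medium with glucose or galactose and a synthetic medium without leucine. In the PRP43 strain, promoter state and, as the group names read, carbon source change together. The series calls the 2 libraries of a group biological duplicates, named A and B here as in the titles.

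Box C/D snoRNPs place most ribose methyl groups on rRNA. In them a guide snoRNA pairs with the pre-rRNA, and the methyltransferase Nop1 (fibrillarin) methylates the rRNA nucleotide that pairs with the fifth guide nucleotide upstream of box D or D'. The guide must leave the pre-rRNA again, and RNA helicases are known to help snoRNAs come off. From general knowledge of yeast snoRNAs, snR61 guides Am1133 and snR62 guides Um1888. The sequence around each site is shown because these bases must pair with the guide, and because the 6 nucleotides on each side set the value of the score. Both are read 5' to 3' in mature 25S numbering from the base column of the deposited tables, with the methylated nucleotide in capitals.
Am1133, nucleotides 1113 to 1153: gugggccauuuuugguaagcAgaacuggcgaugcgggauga
Um1888, nucleotides 1868 to 1908: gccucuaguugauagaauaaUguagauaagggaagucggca
G and C make up 53.7% of the 41 nt around Am1133 and 41.5% of those around Um1888, against 49.7% of the whole stretch.

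RiboMeth-seq reads methylation from alkaline cleavage: a methyl group on the 2' oxygen blocks cleavage of the bond that follows it, so that few fragments begin or end there. The methylation score divides the read ends found at a nucleotide by the number that its 6 neighbours on each side lead one to expect and takes this ratio from 1, with a floor of 0. It is a fraction that is near 1 for a fully methylated nucleotide. The libraries held 5557319 to 14191112 read ends on 18S and 25S, of which 1361366 to 3445951 fell in the stretch (30.7% to 35.9% of the 25S ends).

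Um1888 was close to fully methylated in 3 of the 4 groups and scored far lower in PRP43_Glu. The score was 0.939 and 0.965 in Delta_Dbp3 (libraries A and B), 0.464 and 0.421 in PRP43_Glu, 0.982 and 0.958 in PRP43_Gal, and 0.985 and 0.976 in WT. Both PRP43_Glu libraries lay below all 6 others by a wide gap, and the scores in Delta_Dbp3 were slightly below those in WT without overlap. Over all 55 sites the median change in Delta_Dbp3 against WT was -0.0327, and Um1888 ranked 31 from the most negative. The group means were 0.952 ± 0.0179 in Delta_Dbp3, 0.442 ± 0.0303 in PRP43_Glu, 0.97 ± 0.0168 in PRP43_Gal and 0.98 ± 0.00599 in WT (SD, n = 2 each).

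Behind these scores stood few read ends where Um1888 was methylated. There were 12 and 18 read ends at the site in Delta_Dbp3, 331 and 338 in PRP43_Glu, 18 and 63 in PRP43_Gal, and 6 and 29 in WT. The neighbours led to an expectation of 197 and 508 read ends in Delta_Dbp3, 617 and 584 in PRP43_Glu, 995 and 1510 in PRP43_Gal, and 388 and 1210 in WT. Cleavage at Um1888 thus reached 4.81% ± 1.79 of the expected level in Delta_Dbp3, 55.8% ± 3.03 in PRP43_Glu, 2.99% ± 1.68 in PRP43_Gal and 1.97% ± 0.599 in WT (SD, n = 2 each). The ratio of these means was 18.6 for PRP43_Glu over PRP43_Gal, 28.3 for PRP43_Glu over WT, 2.44 for Delta_Dbp3 over WT and 1.52 for PRP43_Gal over WT. The last of these rests on PRP43_Gal B, at 4.18% of its expectation, against 1.81% in PRP43_Gal A and 1.55% and 2.39% in WT. Without PRP43_Gal B the score differed from WT in the other direction, by 0.00162. An exact Poisson interval on the read ends, with the expectation taken as fixed, gave scores of 0.403 to 0.52 in PRP43_Glu A and 0.356 to 0.481 in PRP43_Glu B. Such intervals (95%) cover counting error only, and reads without molecular identifiers are not independent molecules.

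In limma, fitted over all 55 sites with Benjamini-Hochberg adjustment, the score of Um1888 changed by -0.528 in PRP43_Glu against PRP43_Gal (SE 0.0196, 95% interval -0.577 to -0.478, adjusted p = 3.85e-05). This comparison called 56.4% of the 55 sites lower. Against WT the change in PRP43_Glu was -0.538 (95% interval -0.587 to -0.488, adjusted p = 3.48e-05), where 69.1% of the sites were lower. In Delta_Dbp3 the change against WT was -0.0284 and did not pass (95% interval -0.0779 to 0.0212, adjusted p = 0.351), in a comparison that called 27.3% of the sites lower. In PRP43_Gal it was -0.0102 against WT (95% interval -0.0598 to 0.0393, adjusted p = 0.913), and 0% of the sites were called. That count of 0 comes from limma, with 5 of 55 sites at an unadjusted p under 0.05, and edgeR on the read ends called 6 sites lower. PRP43_Glu and PRP43_Gal are each set against the same 2 WT libraries, and strain, medium and the set of reference RNAs in the tables cannot be told apart in those 2 comparisons. With 2 libraries against 2, an exact permutation test cannot give a two-sided p below 0.333, so these calls rest on the normal model of limma.

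The change at Um1888 appeared in both kinds of read end. From 5' ends alone the mean score was 0.973 in Delta_Dbp3, 0.57 in PRP43_Glu, 0.964 in PRP43_Gal and 0.983 in WT. From 3' ends alone it was 0.951 in Delta_Dbp3, 0.36 in PRP43_Glu, 0.972 in PRP43_Gal and 0.98 in WT. The change in PRP43_Glu against PRP43_Gal was -0.394 from 5' ends (adjusted p = 0.000286 in limma) and -0.612 from 3' ends (adjusted p = 0.000245). Coverage by 5' ends was thin in WT, where about 30.3 and 29.9 such ends were expected and 0 and 1 were found, and in Delta_Dbp3 A, with 31.4 expected and 0 found. A count of 0 allows up to 9.9% of the expected 5' ends in WT A and up to 9.57% in Delta_Dbp3 A. The second deposited score, headed v6, also takes the spread of the neighbours into account and is lower at partly methylated sites. Its means at Um1888 were 0.849 in Delta_Dbp3, 0.0539 in PRP43_Glu, 0.88 in PRP43_Gal and 0.937 in WT.

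Am1133 kept a score above 0.9 in all 8 libraries, and no comparison called it. Its score was 0.905 and 0.955 in Delta_Dbp3, 0.931 and 0.929 in PRP43_Glu, 0.921 and 0.96 in PRP43_Gal, and 0.952 and 0.954 in WT. The groups overlapped in each of the 2 main comparisons, and both PRP43_Glu libraries lay below both WT libraries. Over all 55 sites the median change in PRP43_Glu against WT was -0.141. The means were 0.93 ± 0.0352 in Delta_Dbp3, 0.93 ± 0.00159 in PRP43_Glu, 0.94 ± 0.0276 in PRP43_Gal and 0.953 ± 0.00134 in WT (SD, n = 2 each). There were 89 and 78 read ends at the site in Delta_Dbp3, 46 and 57 in PRP43_Glu, 48 and 43 in PRP43_Gal, and 34 and 18 in WT. Expected read ends were 935 and 1720 in Delta_Dbp3, 667 and 801 in PRP43_Glu, 604 and 1060 in PRP43_Gal, and 705 and 389 in WT. The duplicates of Delta_Dbp3 differed by more than counting error, with intervals of 0.883 to 0.924 in A and 0.943 to 0.964 in B. So did those of PRP43_Gal, with 0.895 to 0.941 in A and 0.946 to 0.971 in B. The mean v6 score was 0.82 in Delta_Dbp3, 0.808 in PRP43_Glu, 0.838 in PRP43_Gal and 0.866 in WT.

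The limma interval at Am1133 leaves room for small changes in either direction. In Delta_Dbp3 the score differed from WT by -0.023 (SE 0.0217, 95% interval -0.0778 to 0.0318, adjusted p = 0.526). In PRP43_Glu it differed from PRP43_Gal by -0.0101 (95% interval -0.0649 to 0.0447, adjusted p = 0.772). Against WT it differed by -0.0127 in PRP43_Gal (95% interval -0.0675 to 0.0421, adjusted p = 0.89) and by -0.0228 in PRP43_Glu (95% interval -0.0776 to 0.032, adjusted p = 0.38).

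**Figure D1:**
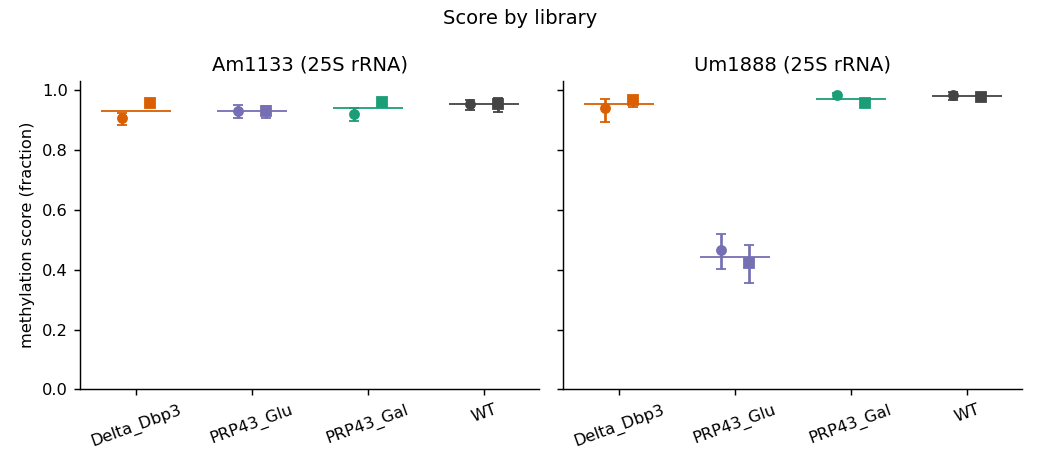
Methylation score (a fraction, y axis from 0) of Am1133 and Um1888 in the 4 groups, with circles for library A, squares for library B, lines for group means and bars for 95% counting intervals. Um1888 drops to 0.464 and 0.421 in PRP43_Glu, while every other score in both panels is above 0.9.

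Within each library, the 2 sites stood close together except in PRP43_Glu. The score of Um1888 minus that of Am1133 was 0.0344 and 0.00994 in Delta_Dbp3, -0.467 and -0.508 in PRP43_Glu, 0.0614 and -0.00141 in PRP43_Gal, and 0.0327 and 0.0224 in WT. Um1888 was thus the lower of both sites by a wide gap in PRP43_Glu, and slightly above Am1133 in 5 of the other 6 libraries. The change in PRP43_Glu against PRP43_Gal, minus the change in Delta_Dbp3 against WT, was tested as a contrast of its own. At Um1888 it was -0.499 (SE 0.0277, 95% interval -0.569 to -0.429, adjusted p = 0.000319 in limma), and 34.5% of the 55 sites had a called difference in this direction. At Am1133 it was 0.0129 (SE 0.0307, 95% interval -0.0646 to 0.0904, adjusted p = 0.775).

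Against the 1145 unannotated nucleotides, the level of Um1888 in PRP43_Glu was no longer set apart. Unannotated nucleotides had a median score between 0.0553 and 0.185 in the 8 libraries, and their 95th percentile lay between 0.496 and 0.723. In PRP43_Glu, 90 of them scored at or above Um1888 in library A (7.86%) and 114 in library B (9.96%). Among the 284 unannotated uridines, 10 did so in library A (3.52%) and 6 in library B (2.11%). The 95th percentile of these uridines was 0.434 in PRP43_Glu A and 0.249 in PRP43_Glu B, and Um1888 lay above it in library B and, at 0.464, in library A. In the 6 other libraries none of the 1145 reached Um1888. Am1133 was reached by 2 of them in Delta_Dbp3 A (0.175%) and by none elsewhere. Libraries of Delta_Dbp3 and WT had more high-scoring background: 6 unannotated nucleotides had a group mean above 0.8 in Delta_Dbp3, 1 in PRP43_Glu, 1 in PRP43_Gal and 8 in WT.

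**Figure D2:**
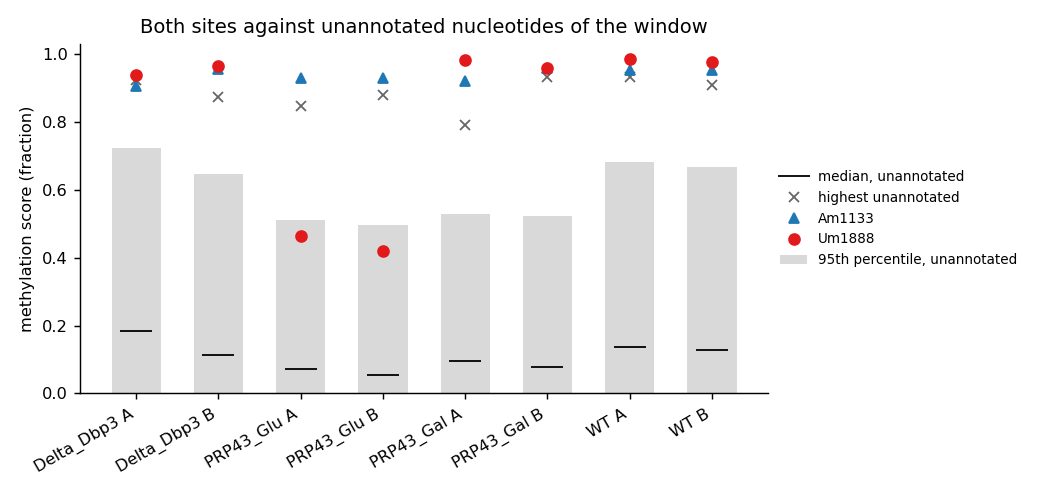
Methylation score (a fraction, y axis from 0) in each of the 8 libraries for Am1133 (triangles) and Um1888 (circles), beside the 1145 unannotated nucleotides of the stretch, whose 95th percentile is a grey bar, median a black line and highest value a cross. Um1888 lies below the 95th percentile in both PRP43_Glu libraries and above the highest unannotated nucleotide in the other 6.

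In the 2 main comparisons, PRP43_Glu against PRP43_Gal and Delta_Dbp3 against WT, no nucleotide within 12 nt of either site was called. The edgeR scan of read ends over their expectation covered 24 neighbours within 12 nt of Um1888. In PRP43_Glu against PRP43_Gal it called 0 of them, with a smallest adjusted p of 0.999. It also called 0 of all 5117 unannotated nucleotides tested in this comparison. A count of 0 near a site thus does not set its neighbourhood apart. The score changes of the 24 neighbours ran from -0.176 to 0.17, with a median size of 0.0378. At Um1888 itself the same scan gave a log2 fold change of read ends over expectation of 4.18 (adjusted p = 0.00928), and 4.74 against WT (adjusted p = 0.00354). The scan called 0 neighbours of Um1888 in Delta_Dbp3 against WT as well (smallest adjusted p = 0.115), although their score changes spread further, from -0.333 to 0.393. In that comparison the scan called 11 of all 5117 unannotated nucleotides tested (0.215%), so calls were rare there too. Around Am1133 it called 0 of 24 in either comparison, and changes ran from -0.374 to 0.347 in Delta_Dbp3 against WT and from -0.266 to 0.22 in PRP43_Glu against PRP43_Gal.

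The nucleotide on the 3' side of Um1888, G1889, had read ends at 53.2% of their expectation in Delta_Dbp3, 46.3% in PRP43_Glu, 56.8% in PRP43_Gal and 116% in WT. The WT libraries lay far apart at G1889, with 147% in A and 84.9% in B, against 63.8% and 42.6% in Delta_Dbp3. The edgeR scan did not call it in Delta_Dbp3 against WT (adjusted p = 0.18). On the 5' side of Um1888, A1887 was at 74.9% in Delta_Dbp3, 85.3% in PRP43_Glu, 102% in PRP43_Gal and 89.4% in WT (65.3% in A and 113% in B).

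**Figure D3:**
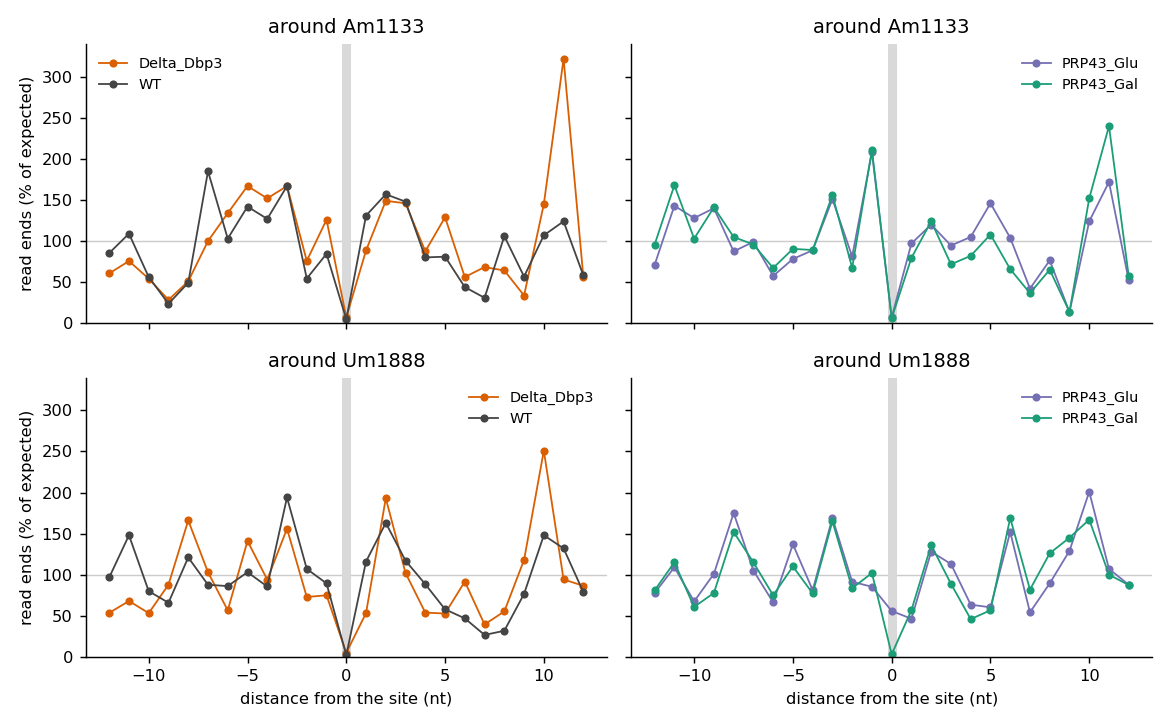
Read ends as a percentage of their expectation (y axis) against distance from the site in nt (x axis, 0 is the site, grey band), as group means of 2 libraries, for Am1133 (top) and Um1888 (bottom). Read ends at Um1888 stand at 55.8% of their expectation in PRP43_Glu and at 2.99% in PRP43_Gal, while those at Am1133 stand between 4.73% and 7.03% in all 4 groups.

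Among all 55 annotated sites ordered by their change in PRP43_Glu against PRP43_Gal, Um1888 ranked 2 from the most negative and Am1133 ranked 44. Only Cm1007 of 18S had a more negative change (-0.687). In Delta_Dbp3 against WT they ranked 31 and 35. Sites with no other annotated site within 12 nt numbered 21 besides these 2. Of the 21, 13 were called lower in PRP43_Glu than in PRP43_Gal and 0 higher, while 56.4% of all 55 sites were called lower. The median change was -0.111 for the 21, against -0.135 over all 55 sites. In Delta_Dbp3 against WT, 1 of the 21 was called lower (Cm2197, by -0.142) and 0 higher, while 27.3% of all 55 were called lower. The most negative change among the 21 was that of Gm2619 (-0.488), which did not pass (adjusted p = 0.0791 in limma). The median was -0.0241 for the 21, against -0.0327 over all 55. Am1133 and Um1888 thus stood on either side of the isolated sites' median in the PRP43 strain, and near it in Delta_Dbp3.

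The sites with scores most like those of Am1133, by the root mean square difference over the 8 libraries, were Gm1271 (0.024), Am974 (0.0254) and Am541 (0.0277), all in 18S. Those most like Um1888 were Am807 of 25S (0.0633), Cm1007 of 18S (0.0817) and Cm1437 of 25S (0.0935). Am807 had a mean of 0.856 ± 0.0579 in Delta_Dbp3, 0.459 ± 0.0879 in PRP43_Glu, 0.94 ± 0.0394 in PRP43_Gal and 0.954 ± 0.0122 in WT (SD, n = 2 each). Its level in PRP43_Glu was near that of Um1888, and its level in Delta_Dbp3 was lower.

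In the RefSeq annotation of yeast (R64), SNR61 stands next to SNR55, which stands next to SNR57, on chromosome XII. These 3 are known to be made from a single polycistronic transcript, while SNR62 stands between the protein genes CUE5 and WHI2 on chromosome XV. The guides snR55 and snR57 are known to direct Um1269 and Gm1572 of 18S, so Am1133 can be set beside both sites. Um1269 scored 0.633 and 0.52 in Delta_Dbp3, 0.961 and 0.956 in PRP43_Glu, 0.934 and 0.951 in PRP43_Gal, and 0.965 and 0.983 in WT. It was lower in Delta_Dbp3 than in WT by -0.397 (adjusted p = 0.00114 in limma) and differed by 0.016 between PRP43_Glu and PRP43_Gal (adjusted p = 0.781). Gm1572 scored 0.889 and 0.937 in Delta_Dbp3, 0.482 and 0.26 in PRP43_Glu, 0.721 and 0.867 in PRP43_Gal, and 0.953 and 0.806 in WT. It was lower in PRP43_Glu than in PRP43_Gal by -0.423 (adjusted p = 0.0117) and differed by 0.0328 between Delta_Dbp3 and WT (adjusted p = 0.851). The 3 sites of this snoRNA cluster thus had 3 patterns: Um1269 was lower without Dbp3, Gm1572 was lower in PRP43_Glu, and Am1133 passed in neither comparison.

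**Figure D4:**
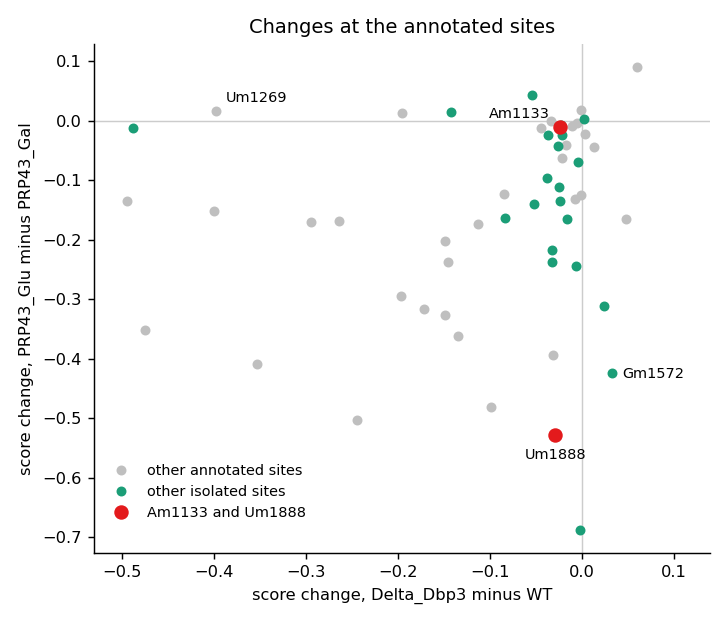
Change of the methylation score in PRP43_Glu minus PRP43_Gal (y axis) against the change in Delta_Dbp3 minus WT (x axis) for the 55 annotated sites, as differences of group means of 2 libraries. Um1888 lies far down near x = 0 (-0.528 and -0.0284), Am1133 lies near the origin, and Um1269 and Gm1572 lie along different axes.

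Outside the annotated sites, the scan ran over 5117 nucleotides of 18S and 25S and called a nucleotide at an adjusted p of 0.05 with a score difference of at least 0.1. For PRP43_Glu against PRP43_Gal it called 0 of 1145 in the stretch (0% of the 5117 overall). Of these 1145, 24 (2.1%) had an unadjusted p under 0.05, against 2.09% of the unannotated nucleotides outside the stretch. Limma on log2 ratios also called 0. For Delta_Dbp3 against WT it called 2 of 1145 (0.175%, with 0.215% over all 5117), 1 lower and 1 higher. An unadjusted p under 0.05 was found at 209 (18.3%), and at 16.4% of the unannotated nucleotides outside the stretch. U1276 had a score of 0 in both Delta_Dbp3 libraries, against 0.512 and 0.413 in WT (adjusted p = 0.0249). G1116, which lies 17 nt before Am1133 within the printed sequence, had 0.446 and 0.488 in Delta_Dbp3, against 0 in both WT libraries (adjusted p = 0.0266). The number of calls changed when single libraries were left out of the fit. This also held for libraries of the PRP43 strain, which are not part of this comparison.

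Comparisons of the PRP43 strain with WT gave more calls among the unannotated nucleotides. PRP43_Gal against WT gave 24 calls in the stretch (18 lower and 6 higher), or 2.1% of its 1145 nucleotides. The share was 1.74% over all 5117. PRP43_Glu against WT gave 35 (28 lower and 7 higher), or 3.06% of the stretch, with 2.79% over all 5117. An unadjusted p under 0.05 was found at 261 (22.8%) and 257 (22.4%) nucleotides of the stretch in these comparisons, in the same order. Outside the stretch the shares were similar, at 19.9% and 22.8% of the unannotated nucleotides. Both comparisons share the WT libraries. C1977 scored 0 in all 4 libraries of the PRP43 strain, against 0.791 and 0.707 in WT (adjusted p = 0.011 for PRP43_Glu and 0.0126 for PRP43_Gal, edgeR). G1962 also scored 0 in all 4, against 0.755 and 0.655 in WT, and so did U1540, against 0.692 and 0.545 in WT. U1472 scored 0 and 0.165 in PRP43_Glu and 0.134 in both PRP43_Gal libraries, against 0.862 and 0.86 in WT. C1615 scored 0 in both PRP43_Glu libraries, 0.101 and 0.163 in PRP43_Gal, and 0.602 and 0.702 in WT. U1124, which lies 9 nt before Am1133 and is known as a pseudouridine, had 0.601 and 0.831 in Delta_Dbp3, 0 in both PRP43_Glu libraries, 0 and 0.164 in PRP43_Gal, and 0.784 and 0.742 in WT (adjusted p = 0.03 for PRP43_Glu and 0.0409 for PRP43_Gal, each against WT). With a single library left out, the PRP43_Gal count was 1 without WT A, 0 without WT B or either PRP43_Gal library, 6 without either PRP43_Glu library, and 70 or 72 without Delta_Dbp3 A or B. The PRP43_Glu count was 0 without either WT or either PRP43_Glu library, 10 without either PRP43_Gal library, and 116 or 117 without Delta_Dbp3 A or B.

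The unannotated nucleotides with the highest mean scores in WT stayed below both sites there. They were G1976 (0.901 ± 0.0116), G1754 (0.892 ± 0.0587), U1472 (0.861 ± 0.00114), A1197 (0.857 ± 0.0116) and G1963 (0.853 ± 0.000575; SD, n = 2 each). In Delta_Dbp3 their means were 0.773, 0.883, 0.641, 0.807 and 0.7 in the same order of nucleotides. In PRP43_Glu they were 0.617, 0.473, 0.0823, 0.462 and 0.533, and in PRP43_Gal 0.323, 0.578, 0.134, 0.456 and 0.398. All 5 had lower means in the 3 other groups than in WT, in which they were chosen for being highest, so this order is a description of the choice and no result.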

How the data were processed

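RiboMeth-seq libraries were made from whole cell RNA by partial alkaline cleavage and selection of 20 to 40 nt fragments, per the labels' protocols. Tools listed are cutadapt 2.0 and Bowtie2 2.3.4.1, per the submitters' processing notes, with mapping settings and reference not given in the sources used here. The deposited counts are, per the file headers, numbers of 5' ends, of 3' ends and of both at each nucleotide and library. The authors' methylation level, headed as a percentage and held as a fraction, was met by a recomputation from the counts (6 neighbours on each side, weights from 1 to 0.5) within 5e-10 over 41376 values, and so was the deposited v6 score. Of 220 deposited means, 6 were met only with 5' ends in 1 library, none of them at Am1133 or Um1888.

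Scores at 55 sites were fitted with limma 3.58.1 (R 4.3.3) over 8 libraries, without a block. Read ends of all nucleotides with a mean of at least 50 were fitted with edgeR 4.0.16 (quasi-likelihood, expected read ends as offset). Both used Benjamini-Hochberg adjustment within each comparison, and both were tested on simulated data. The simulated libraries were independent, without batch or barcode structure, so they do not show how the fits behave on these duplicates. Tables and plots were made in Python 3.11.15 with pandas 2.3.3, scipy 1.17.1 and matplotlib 3.10.9. The members and lists were chosen with earlier results of these data known. Besides both sites, at most 5 called nucleotides per comparison, the 5 highest unannotated ones in WT, the 3 most similar sites for each, and the sites of the snR61 cluster are named. Cm1007, Cm2197 and Gm2619 in the account of ranks, and G1889 and A1887, were named after their values were seen. Duplicates differed by more than sampling noise. The labels do not say that letters A and B pair libraries. Deviations of the same letter over the sites had correlations of -0.0527 for Delta_Dbp3 with WT and -0.276 for PRP43_Glu with PRP43_Gal. They were -0.241 for PRP43_Gal with WT, 0.327 for PRP43_Glu with WT, 0.139 for Delta_Dbp3 with PRP43_Gal and -0.0138 for Delta_Dbp3 with PRP43_Glu. Over nucleotides with a mean of at least 50 read ends, the value for Delta_Dbp3 with PRP43_Glu was -0.475. In these 2 groups, libraries of opposite letters share a barcode. The remaining pairs of groups had -0.122 to 0.179 over the nucleotides. The letters were thus not taken as pairs.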

Additional observations from a re-analysis of the deposited data

Results flagged for a closer look

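At Um1888 the change in PRP43_Glu against PRP43_Gal and the change in Delta_Dbp3 against WT differed by -0.499 (adjusted p = 0.000319 in limma over 55 sites), by a test of the difference itself. The change was -0.528 in PRP43_Glu against PRP43_Gal and -0.0284 in Delta_Dbp3 against WT.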

How the results depend on the processing

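Over 19 alternatives for each comparison, Um1888 passed in all 19 for PRP43_Glu against PRP43_Gal (adjusted p from 1.32e-05 to 0.00375), for PRP43_Glu against WT (1.32e-05 to 0.00124) and for the difference of both changes (0.000221 to 0.0156). It passed in 0 of 19 for Delta_Dbp3 against WT (0.0691 to 0.86) and for PRP43_Gal against WT (0.466 to 1.0), and Am1133 passed in 0 of 19 for every comparison (0.174 at the lowest). Several of the 19 could not move the estimate: a replicate block, trend and robust moderation, and a fit of only the groups compared. Nor could leaving out a library of a group outside the comparison. These alternatives changed only the spread and the adjusted p, so they are not separate support for the size of a change. With a replicate block the change of Um1888 in PRP43_Glu against PRP43_Gal was -0.528 (adjusted p = 0.000314 in limma), and the block changed no call at either site. The alternatives with v6 scores and with crossed letters were chosen after seeing the data. Crossed letters exchange A and B in PRP43_Glu, so that its libraries share a block with the Delta_Dbp3 libraries of the same barcode. They gave 31 lower sites for PRP43_Glu against PRP43_Gal, against 30 with the plain block.

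Uncalled changes turned sign where they were near 0, and the cause was not tested. With a library left out, Am1133 ranged from -0.0479 to 0.00189 in Delta_Dbp3 against WT, from -0.0297 to 0.00943 in PRP43_Glu against PRP43_Gal, from -0.012 to 0.0378 for the difference of both, and from -0.0322 to 0.00686 in PRP43_Gal against WT. Um1888 ranged from -0.0221 to 0.00162 in PRP43_Gal against WT. From 3' ends alone Am1133 had -0.0182 for the difference and 0.0229 in PRP43_Gal against WT.

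Counts moved more than the sites. Calls among unannotated nucleotides of the stretch, with a library left out, ranged from 0 to 21 for Delta_Dbp3 against WT, from 0 to 72 for PRP43_Gal against WT and from 0 to 117 for PRP43_Glu against WT. With a replicate block they were 0, 10 and 18 in the same order, and with 2 neighbours 15 for PRP43_Gal against WT. Of the 55 sites, those lower in Delta_Dbp3 than in WT numbered 15, against 7 when the fit held no other group, 25 on log2 odds (with 1 higher), 8 from 5' ends and 4 from 3' ends. Sites lower in PRP43_Glu fell to 18 against PRP43_Gal and to 23 against WT from 3' ends alone. The 19 sites with a more negative change in the PRP43 strain became 7 on log2 odds, 4 with edgeR, 10 from 3' ends and 11 with v6 scores. PRP43_Gal against WT, with 0, had 6 with edgeR, 7 on log2 odds, and 2 each with trend and robust moderation or when the fit held no other group. Scores above 0.9 at both sites rest on 6 to 89 read ends in a library, which limits their precision, and duplicates also differed by more than counting error.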

Other observations

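Log2 ratios of read ends to their expectation at the unannotated nucleotides were compared between libraries as a description. The 1145 nucleotides share depth and base composition within a library. Pearson r between duplicates was 0.638 to 0.755. It was 0.551 to 0.604 between Delta_Dbp3 and WT libraries, 0.706 to 0.763 between PRP43_Glu and PRP43_Gal libraries, and 0.388 to 0.495 between libraries of the PRP43 strain and WT. The file headers give 6 distinct barcodes for the 8 libraries, and those of Delta_Dbp3 and PRP43_Glu are the same. Delta_Dbp3 A with PRP43_Glu B and Delta_Dbp3 B with PRP43_Glu A, which share a barcode, had an r of 0.556 and 0.549. The pairs with different barcodes had 0.398 (both A) and 0.422 (both B). The part of the barcode in these values was not tested, and barcode and group cannot be told apart within each main comparison. At Um1888, Delta_Dbp3 and PRP43_Glu carry the same barcodes and had scores of 0.952 ± 0.0179 and 0.442 ± 0.0303 (SD, n = 2 each). These 2 groups also differ in strain, and the part of the barcode in the change at Um1888 was not tested.

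G1142, chosen after its values were seen, lies 9 nt after Am1133, within the printed sequence, and was the highest unannotated nucleotide of the stretch in all 4 libraries of the PRP43 strain. Its score was 0.474 and 0.852 in Delta_Dbp3, 0.848 and 0.88 in PRP43_Glu, 0.792 and 0.934 in PRP43_Gal, and 0.557 and 0.306 in WT. Its duplicates lay far apart in Delta_Dbp3 and WT, while those of Am1133 differed there by 0.0498 and 0.00189.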
